A study of Rattus norvegicus with 64 samples.

Results

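Levels of 8 transcription factors and corepressors known from the deep layers of the cerebral cortex, Fezf2, Bcl11b, Tbr1, Tle4, Foxp1, Foxp2, Etv1 and Rorb, were followed in the entorhinal cortex of growing rats. They were chosen by gene symbol, and all 8 were found among the 17260 genes of each count file. Tissue came from Long Evans rats at postnatal day 2, 9, 23 or 45 (P2, P9, P23 and P45), from the medial (MEC) or lateral (LEC) entorhinal cortex, and was cut under a microscope into layer II (LII) and the deep layers (LDeep, layers III to VI, as the study's methods give it for MEC, which was dissected from both hemispheres). Each combination of region and layer held 5 samples from P2, 4 each from P9 and P45, and 3 from P23, which made 64 samples in 16 groups, with no treatment named. Ribosome-depleted total RNA was sequenced. The labels name no animals, while the study calls its MEC samples biological replicates, so for LEC p-values may measure technical spread only. The comparisons ask how the layers and regions of the entorhinal cortex differ while they mature after birth.

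Cortical projection neurons acquire their layer identity through transcription factors that promote the programme of their own class and repress those of other classes. Fezf2 and Bcl11b direct neurons of layer V that project below the cortex, Tbr1 directs corticothalamic neurons of layer VI, and Tle4 is a corepressor found in the same layer VI neurons. Foxp1, Foxp2, Etv1 and Rorb mark further deep or middle layer classes and remain in use after the neurons have settled. In bulk tissue such as this, fewer cells of a type and less RNA per cell cannot be told apart.

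The start sites of the genes with the largest layer differences, Fezf2, Tbr1 and Tle4, and of Rorb, whose layer difference passed the test at P2 only, are shown by their promoters, 250 bases before to 50 bases after the start, from RefSeq on the GRCr8 build. RefSeq windows matched 6 of the 8 genes, all but Bcl11b and Foxp2. Capitals mark matches, on either strand, to 5 short motifs, of T-box, forkhead, ETS, nuclear receptor and homeodomain proteins. None was searched for the zinc finger factors. The Fezf2 window is chr15:15203943-15204242 on the plus strand, Tbr1 chr3:66759553-66759852 on the plus strand, Tle4 chr1:221222777-221223076 on the minus strand and Rorb chr1:225970924-225971223 on the minus strand.
Fezf2: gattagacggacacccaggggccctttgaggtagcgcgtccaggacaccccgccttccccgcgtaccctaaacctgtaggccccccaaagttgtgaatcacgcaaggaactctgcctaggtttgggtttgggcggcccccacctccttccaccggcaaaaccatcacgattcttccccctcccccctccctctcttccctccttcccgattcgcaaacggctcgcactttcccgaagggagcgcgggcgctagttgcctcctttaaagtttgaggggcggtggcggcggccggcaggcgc
Tbr1: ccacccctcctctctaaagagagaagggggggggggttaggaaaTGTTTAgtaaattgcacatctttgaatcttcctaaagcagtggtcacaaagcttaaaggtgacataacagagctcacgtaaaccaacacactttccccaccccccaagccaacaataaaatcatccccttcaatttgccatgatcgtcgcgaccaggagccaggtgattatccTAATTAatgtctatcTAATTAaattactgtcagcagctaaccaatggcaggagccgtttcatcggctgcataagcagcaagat
Tle4: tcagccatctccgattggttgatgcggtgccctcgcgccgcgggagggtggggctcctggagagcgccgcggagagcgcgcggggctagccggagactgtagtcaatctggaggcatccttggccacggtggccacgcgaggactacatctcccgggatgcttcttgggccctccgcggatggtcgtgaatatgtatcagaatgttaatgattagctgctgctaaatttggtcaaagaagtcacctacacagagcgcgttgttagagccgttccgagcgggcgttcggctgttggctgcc
Rorb: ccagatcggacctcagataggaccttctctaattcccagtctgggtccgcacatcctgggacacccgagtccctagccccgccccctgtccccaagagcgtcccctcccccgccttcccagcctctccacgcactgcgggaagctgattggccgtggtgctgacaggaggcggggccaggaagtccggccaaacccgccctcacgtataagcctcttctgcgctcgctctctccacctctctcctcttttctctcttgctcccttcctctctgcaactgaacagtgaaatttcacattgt
The Tbr1 window held the forkhead letters TAAACA on the opposite strand, 206 bases before the start, and the homeodomain letters TAATTA at 33 and 18 bases before it. These letters occur in 13.7% and 5.36% of 33469 promoter windows of the same length. The T-box letters AGGTGT (13.6% of windows), the ETS letters CCGGAA (15.0%) and the nuclear receptor letters AGGTCA (16.2%) matched none of the 6 windows, and Foxp1 and Etv1 each held 1 forkhead match. The windows also differed in base composition, with 27 CG dinucleotides in Tle4, 23 in Fezf2, 15 in Rorb and 6 in Tbr1, against a median of 7 over all windows. A match is only a run of letters, and no binding was measured. Rorb lies on the plus strand of Rn6, the build the counts were made on, and on the minus strand of GRCr8.

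Sequencing depth was 3894334 to 11439143 counts per sample (median 7569157.5). Per sample, the genes had medians of 68 counts (Foxp2) to 970.5 counts (Etv1), and the lowest count of any was 5, for Fezf2. No sample had 0 counts of any of them. All 100 pairs of replicates differed by more than counting noise. Of 12 deep-layer projection neuron markers 9 were higher in LDeep and 2 in LII, Ntsr1 of layer VI neurons (log2 fold-change, LFC, -0.58) and Thsd7a (-0.42), and 4 of 5 layer II neuron markers were higher in LII. Meningeal fibroblast markers were higher in LII for 7 of 8 genes (median LFC -3.79, Col1a1 -4.24), as were 6 of 7 astrocyte and 5 of 5 endothelial markers. The summed meningeal level ran against the layer label in 3 libraries of MEC P2, at 20.2 and 35.6 CPM in replicates 1 and 3 of LII and at 762 CPM in replicate 1 of LDeep. It was 207 to 1210 CPM in the other LII samples and 24.1 to 291 CPM in the other LDeep samples. Oligodendrocyte markers were higher in LDeep for 4 of 8 genes and in LII for 1, and at P23 and at P45 for 7 of 8 in LDeep (median LFC 1.82 and 1.5). The part of these cell types in the layer differences was not tested. Pan-neuronal markers had a median LFC of 0.20 (6 of 7 higher in LDeep). The 5 libraries least like the others of their group were replicates 1 and 3 of MEC LII P2, replicates 1 and 4 of MEC LDeep P2 and replicate 4 of LEC LDeep P45, with median correlations of 0.914 to 0.960 with their group.

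All 8 genes were higher in LDeep than in LII when ages and regions were weighted equally, against 30.5% of the 12521 genes tested. The LFC was 3.17 ± 0.16 (SE) for Fezf2, 1.68 ± 0.16 for Tbr1, 1.67 ± 0.08 for Tle4, 1.42 ± 0.19 for Foxp2, 1.15 ± 0.10 for Etv1, 0.67 ± 0.08 for Foxp1, 0.57 ± 0.09 for Bcl11b and 0.32 ± 0.09 for Rorb. The Benjamini-Hochberg (BH) adjusted p, from edgeR's quasi-likelihood test over all genes, was 0.0029 for Rorb and 1.5e-07 or lower for the others. The median LFC of the 8 genes was 1.29 and that of all genes 0.05. In MEC 7 of 8 were higher in LDeep (19.9% of genes) and in LEC 7 of 8 (21.2%), the exceptions being Rorb in MEC (LFC 0.07, adjusted p = 0.70) and Bcl11b in LEC (LFC 0.09, adjusted p = 0.57). Without the 5 libraries named above these counts were again 8, 7 and 7. The groups of LDeep lay entirely above those of LII in at least 5 of the 8 pairs of region and age for 6 of the 8 genes, against 3.08% of genes.

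**Figure D1:**
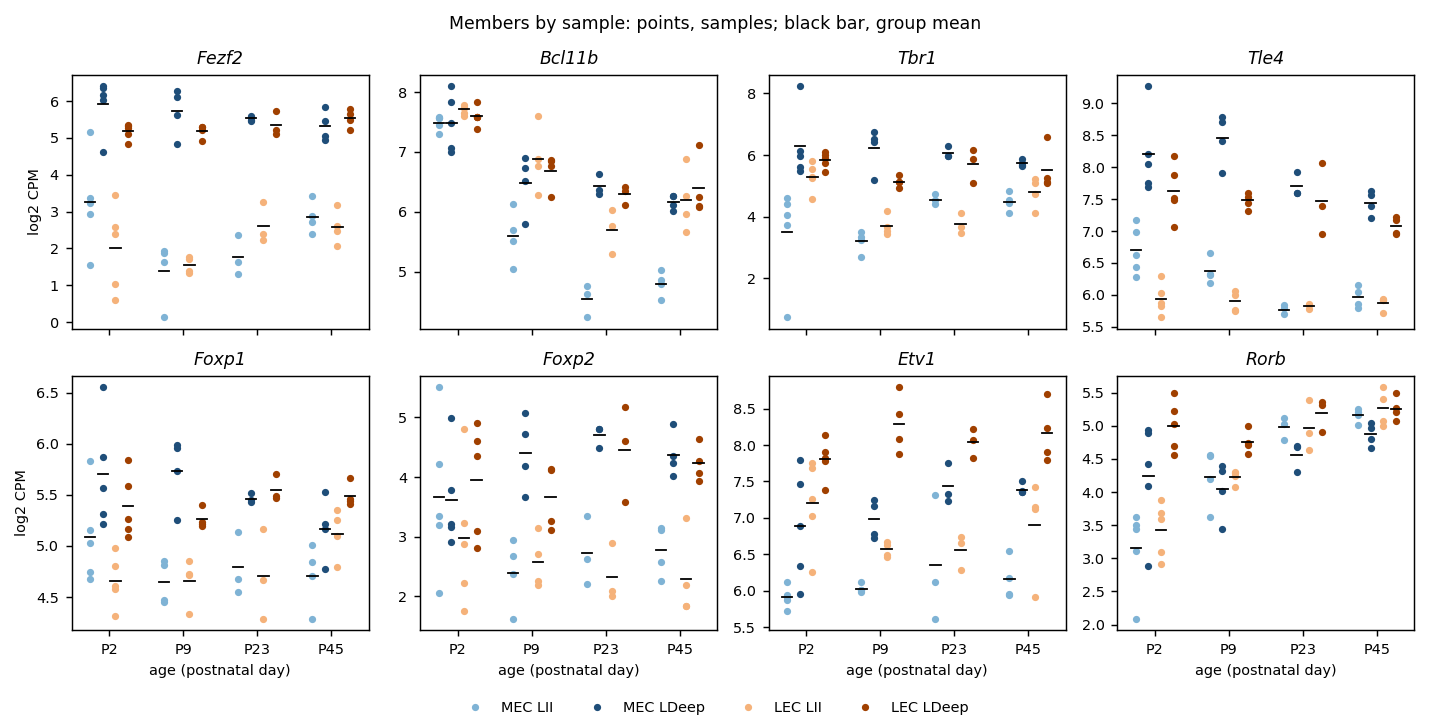
Level of each gene (log2 CPM, vertical axis, scaled per panel) against age for every sample, with the 4 colours for region and layer and black bars for group means. Fezf2 in LDeep stayed between 4.61 and 6.41 in all 32 samples, and in all 4 the group mean of Bcl11b was lower, and that of Rorb higher, at P45 than at P2.

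Fezf2 (Rn6 chr15:12827707-12831496, plus strand, 5 exons), a zinc finger repressor that specifies subcortical projection neurons, showed the widest gap. Levels are given as log2 CPM, the counts scaled to a common library size on a log2 scale. In MEC at P9 its LII samples were at 0.13, 1.93, 1.63 and 1.87 and its LDeep samples at 6.12, 5.62, 4.83 and 6.29. In LEC at P9 LII was at 1.39, 1.33, 1.77 and 1.72 and LDeep at 5.30, 5.21, 5.31 and 4.92. The layers were thus far apart at this age, with an LFC of 4.05 ± 0.34 over both regions (16.5-fold, adjusted p = 2.4e-13). At P2 the MEC LII samples spread widely, at 3.23, 1.55, 5.16, 3.37 and 2.93, and the highest reached into the LDeep samples at 4.61, 6.18, 6.02, 6.41 and 6.35. The samples that crossed were replicate 3 of LII (5.16) and replicate 1 of LDeep (4.61). Both were among the 5 libraries named above, and their meningeal sums ran against the layer label (35.6 and 762 CPM). MEC at P2 was the only pair of region and age in which the layers overlapped for Fezf2. In all 32 pairs of LII and LDeep samples with the same region, age and replicate number, LDeep was higher. The mean level in MEC LDeep was 5.92 at P2 and 5.33 at P45, and that in LEC LDeep 5.18 and 5.53. Between P2/P9 and P23/P45 neither passed the test (LFC -0.48 ± 0.28, adjusted p = 0.12, and 0.27 ± 0.27, adjusted p = 0.39). In MEC LDeep the change passed without the 5 libraries named above (-0.53, adjusted p = 0.02) and without replicate 1 of MEC LDeep P2 alone (-0.58, adjusted p = 0.049). The LFC between layers was 2.63 at P2, 3.26 at P23 and 2.76 at P45, and its change from P2/P9 to P23/P45 did not pass the test (-0.33, 95% interval -0.97 to 0.30, adjusted p = 0.63).

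Tle4 (Rn6 chr1:231394606-231530786, minus strand, 19 exons) is a corepressor of the Groucho family that transcription factors recruit. Of the 8 genes, it alone had layers that overlapped in none of the 8 pairs of region and age. By the looser mark of at least 5 of the 8 pairs, LDeep lay entirely above LII for 3.08% of all genes. In MEC its LII samples ranged from 5.70 to 7.18 (median 6.24, n = 16) and its LDeep samples from 7.20 to 9.27 (median 7.83, n = 16). In LEC LII ranged from 5.65 to 6.30 (median 5.87) and LDeep from 6.95 to 8.17 (median 7.42). In both regions the whole LDeep range lay above the whole LII range, all ages together. The LFC was 1.78 ± 0.12 in MEC and 1.56 ± 0.12 in LEC. Over both regions it lay between 1.35 and 1.85 at every age, and by region and age it ranged from 1.21 (LEC at P45) to 2.12 (MEC at P9).

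Tbr1 (Rn6 chr3:47677720-47685902, plus strand, 7 exons), the T-box factor of corticothalamic neurons, differed by layer at every age in MEC and less evenly in LEC. At P9 in MEC LII held 2.71, 3.24, 3.35 and 3.50 and LDeep 6.75, 6.52, 5.20 and 6.41, which gave an LFC of 3.12 ± 0.46. At P45 in MEC LII held 4.44, 4.13, 4.56 and 4.83 and LDeep 5.68, 5.65, 5.88 and 5.75, closer but still apart (LFC 1.25 ± 0.43, adjusted p = 0.038). In LEC at P2 the layers overlapped, with LII at 4.59, 5.26, 5.56, 5.80 and 5.30 and LDeep at 5.45, 6.11, 5.76, 5.92 and 6.0 (LFC 0.51 ± 0.37, adjusted p = 0.44). The layer difference in MEC was smaller at P23/P45 than at P2/P9 by 1.57 ± 0.44 log2 units (adjusted p = 0.021). This call depended on the samples used, since the change was -1.07 (adjusted p = 0.064) without replicate 4 of MEC LDeep P2, where Tbr1 stood at 8.24 against 5.49 to 6.15 in the other 4, and was -1.57 with an adjusted p of 0.097 when MEC was fitted alone. Leaving out all samples of replicate 1 or 2 at P9, or of any of the 3 replicates at P23, also ended it, with changes of -1.42 to -1.60. Over both regions the change was -0.57 (95% interval -1.18 to 0.04, adjusted p = 0.29). Replicate 1 of MEC LII P2 held Tbr1 at 0.74 against 3.72 to 4.62 in the other 4, and had the lowest meningeal marker sum of all samples, 20.2 CPM.

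Foxp2 (Rn6 chr4:41364441-41942023, plus strand, 19 exons) and Foxp1 (Rn6 chr4:131366885-131598304, minus strand, 16 exons) are forkhead repressors that can pair with each other. Foxp2 at P2 was at 4.22, 3.20, 5.50, 3.35 and 2.05 in MEC LII and at 3.17, 3.79, 3.21, 4.99 and 2.92 in MEC LDeep. These overlapped, as did the LEC samples, and over both regions the LFC at P2 was 0.22 (95% interval -0.43 to 0.86, adjusted p = 0.69). It was 0.93 (adjusted p = 0.036) without the samples of replicate 3 at P2 and -0.25 (adjusted p = 0.67) without those of replicate 4. In MEC LII at P2 the values 4.22 and 5.50 came from replicates 1 and 3, whose meningeal sums ran against the layer label. So did that of replicate 1 of MEC LDeep P2 (3.17). The part of this in the overlap was not tested. At P23 MEC LII held 2.62, 3.34 and 2.21 and MEC LDeep 4.80, 4.81 and 4.49. In MEC the layers were apart at all 3 later ages, and in LEC at P23 and P45. In LEC at P9 they overlapped and the difference did not pass the test (adjusted p = 0.16). It passed when only P9 samples were fitted (1.05, adjusted p = 0.048). Over both regions the LFC was 1.59 ± 0.39 at P9, 2.11 ± 0.45 at P23 and 1.75 ± 0.39 at P45 (adjusted p = 0.001, 0.00025 and 0.00037). The change of the difference between P2/P9 and P23/P45 was 1.02 ± 0.39 and did not pass the test (adjusted p = 0.092). It passed without replicate 4 of MEC LDeep P2 (1.20, adjusted p = 0.029), and without all samples of replicate 4 (1.26, adjusted p = 0.022) or 5 (1.11, adjusted p = 0.045) of P2. Foxp1 differed by a smaller step that was present from P2 on, with an LFC of 0.69 ± 0.14 at P2, 0.86 ± 0.16 at P9 and 0.73 ± 0.18 at P23. At P45 it was 0.41 ± 0.16 (adjusted p = 0.044), a call that was lost in 30 of the 80 fits that left out a sample or a replicate number.

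Etv1 (Rn6 chr6:58467254-58558640, plus strand, 14 exons), an ETS activator of layer V neurons, was higher in LDeep in both regions. In MEC LII it ranged from 5.62 to 7.32 (median 5.99) and in MEC LDeep from 5.96 to 7.79 (median 7.28). In LEC LII it ranged from 5.92 to 7.75 (median 6.70) and in LEC LDeep from 7.39 to 8.79 (median 7.99). The ranges over all ages overlapped in both regions, while within an age the layers were apart in 5 of 8 pairs of region and age. The LFC was 0.84 ± 0.18 at P2 and 1.20 to 1.37 at the later ages.

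**Figure D2:**
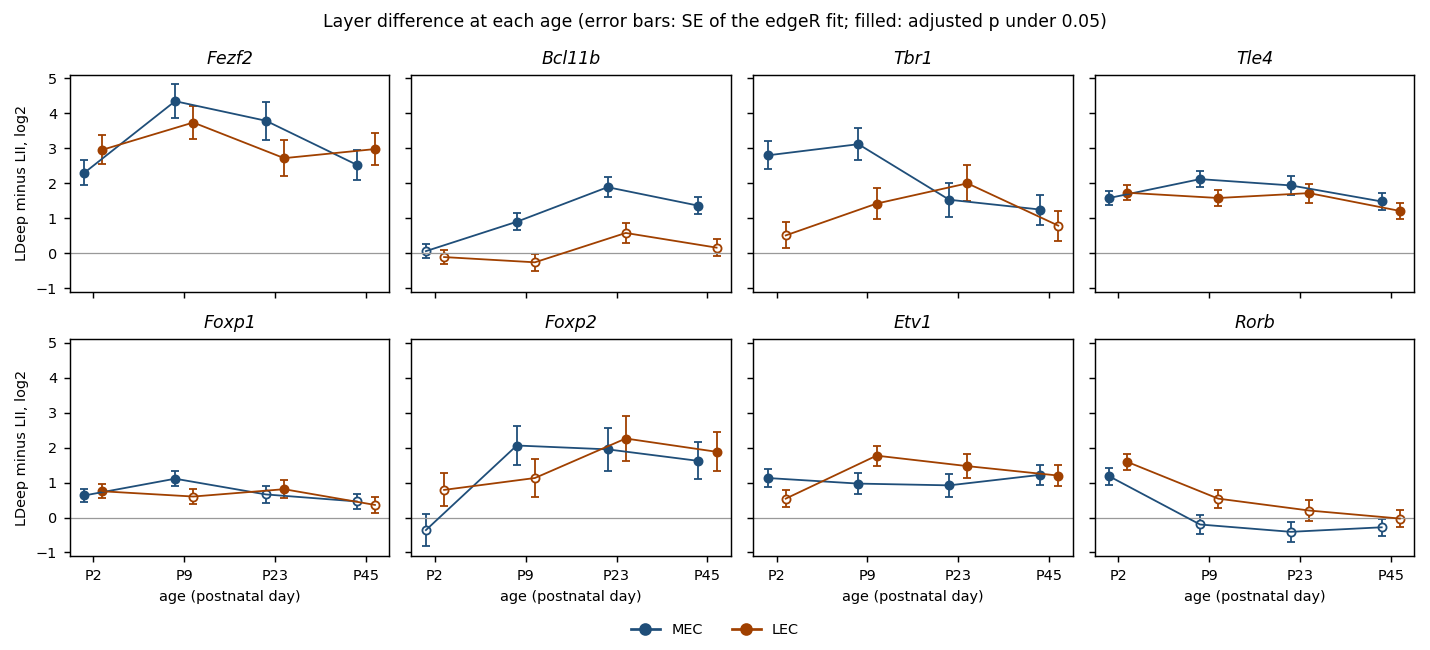
Layer difference (LDeep minus LII, log2, vertical axis) against age in MEC and LEC, as fitted by edgeR, with SE bars and filled points where the adjusted p was under 0.05. Fezf2 and Tle4 passed at every age in both regions, Bcl11b only in MEC from P9 on, and Rorb only at P2.

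Bcl11b (Rn6 chr6:131834097-131926272, minus strand, 4 exons) is a zinc finger factor of corticospinal neurons that is also used in striatal neurons and interneurons. Its layer difference did not pass the test at P2 and passed at the 3 later ages in MEC. At P2 MEC LII was at 7.58, 7.57, 7.45, 7.30 and 7.56 and MEC LDeep at 7.06, 7.48, 7.84, 8.10 and 7.0. At P23 MEC LII was at 4.63, 4.24 and 4.77 and MEC LDeep at 6.37, 6.29 and 6.63. The layers overlapped at P2 and were apart at P23, and the LFC in MEC went from 0.06 ± 0.21 at P2 to 0.90 ± 0.24 by P9, 1.89 ± 0.29 by P23 and 1.36 ± 0.25 by P45. In LEC no age passed the test, with LFCs of -0.11, -0.26, 0.58 and 0.16. At P23 LEC LDeep (6.11 to 6.42) nonetheless lay above LEC LII (5.30 to 6.03), and the difference passed when only P23 samples were fitted (0.56, adjusted p = 0.031). At P45 LEC LII was at 5.67, 6.26, 5.97 and 6.89 and LEC LDeep at 6.10, 6.08, 6.25 and 7.11, which overlapped. The layer difference was larger in MEC than in LEC by 0.96 ± 0.17 (adjusted p = 0.00077) and larger at P23/P45 than at P2/P9 by 0.85 ± 0.17 (adjusted p = 0.00048). It was the only one of the 8 genes past the test of layer against region, for which 1.25% of genes passed. Tbr1 came next at 0.99 ± 0.31 (adjusted p = 0.11), and passed at 0.79 (adjusted p = 0.006) without the 5 libraries named above, at 1.11 (adjusted p = 0.045) without replicate 4 of LEC LDeep P45 alone, and at 0.99 (adjusted p = 0.035) without the samples of replicate 1 at P2. With a fixed replicate block it passed at 0.96 (adjusted p = 0.036).

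Rorb (Rn6 chr1:234252757-234435839, plus strand, 10 exons) is a nuclear receptor best known from layer IV. Its layer difference passed the test at P2 and at none of the later ages. At P2 in LEC LII held 2.91, 3.88, 3.69, 3.59 and 3.09 and LDeep 4.70, 5.03, 4.56, 5.49 and 5.23, and the layers did not overlap. At P2 in MEC LII held 2.09, 3.11, 3.50, 3.62 and 3.45 and LDeep 2.89, 4.42, 4.09, 4.94 and 4.89, which overlapped in 1 sample of LDeep, replicate 1, a library that stood apart. The LFC over both regions was 1.38 ± 0.17 at P2 (adjusted p = 4.9e-08) and then 0.17, -0.11 and -0.16 at the 3 later ages. At P9 the regions differed in sign. In LEC LDeep (4.57 to 5.0) still lay entirely above LII (4.08 to 4.30), though the test was not passed (LFC 0.54 ± 0.26, adjusted p = 0.16). In MEC the LFC at P9 was -0.20 ± 0.26 (adjusted p = 0.64). At P23 in MEC the order was turned, with LII at 5.12, 5.03 and 4.78 above LDeep at 4.31, 4.68 and 4.70 (LFC -0.41 ± 0.29, adjusted p = 0.40). The change of the layer difference from P2/P9 to P23/P45 was -0.91 ± 0.19 (adjusted p = 0.00053). Rorb and Bcl11b were the 2 of 8 genes past this test, which 8.8% of genes passed, and they moved in opposite directions. By age, 6 of 8 genes were higher in LDeep at P2 (8.48% of genes), 6 at P9 (16.2%), 7 at P23 (11%) and 7 at P45 (12%). When only P2 samples were fitted, the layer difference at P2 in MEC no longer passed for Fezf2 (2.27, adjusted p = 0.05), Rorb (1.12, adjusted p = 0.098), Etv1 (1.08, adjusted p = 0.084) and Foxp1 (0.58, adjusted p = 0.21), nor that in LEC for Foxp1 (0.68, adjusted p = 0.12). For oligodendrocyte markers the layer difference grew between P2/P9 and P23/P45 in 6 of 8 genes (median 1.86), and their part in these results was not tested.

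Between P2/P9 and P23/P45, the grouping by age that the study uses, 3 of 8 genes changed. Rorb rose, as did 41.0% of all genes, and Bcl11b and Tle4 fell, as did 40.6%. Bcl11b fell by 1.19 ± 0.09 (2.28-fold, adjusted p = 5.6e-18), and Tle4 fell by 0.46 ± 0.08 (adjusted p = 9.5e-07). Rorb rose by 0.87 ± 0.09 (1.83-fold, adjusted p = 2.1e-12). Samples with the same replicate number may share an animal, in which case these p-values are too small. The 95% intervals of the other 5 were -0.25 to 0.38 for Fezf2, -0.22 to 0.39 for Tbr1, -0.18 to 0.13 for Foxp1, -0.44 to 0.32 for Foxp2 and -0.03 to 0.37 for Etv1. Oligodendrocyte markers rose with age for 8 of 8 genes (median LFC 5.73), with summed levels of 117 to 915 CPM at P2/P9 and 835 to 16800 CPM at P23/P45, and 6 of 7 astrocyte markers rose (median LFC 1.45). Of 7 pan-neuronal markers 4 rose, led by Snap25 (1.89), and 2 fell, Tubb3 (-2.07) and Stmn2 (-1.68), with a median LFC of 0.55. Their summed levels nonetheless were 5740 to 8510 CPM at P2/P9 and 4080 to 7020 CPM at P23/P45. The part of these shifts in the changes with age was not tested.

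**Figure D3:**
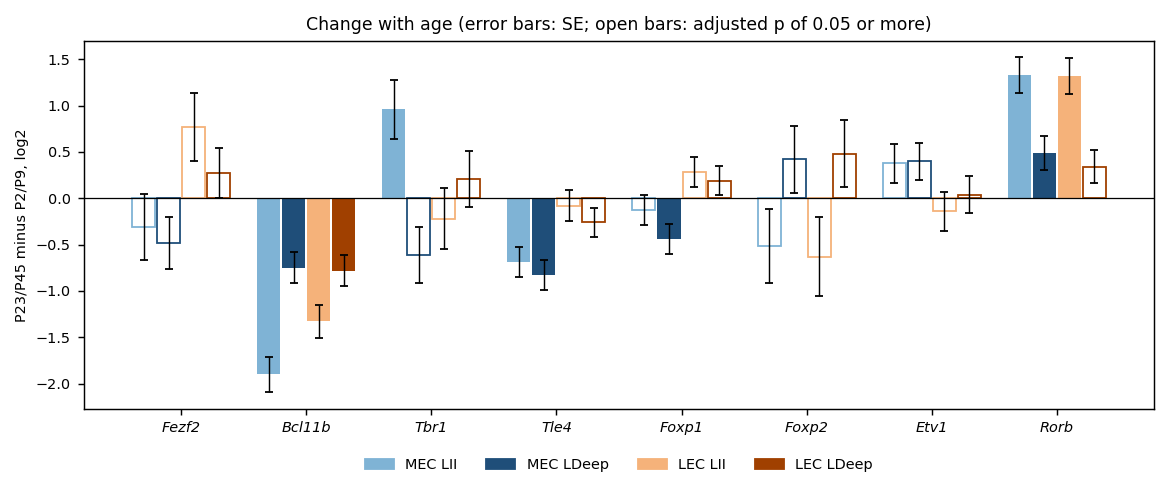
Change with age (P23/P45 minus P2/P9, log2, vertical axis) of each gene in the 4 combinations of region and layer, with SE bars and open bars where the adjusted p was 0.05 or more. Bcl11b fell in all 4, most in MEC LII at -1.90, and Rorb rose in both LII groups by 1.33 and 1.32.

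The fall of Bcl11b was seen in each layer of each region. In MEC LII it ranged from 5.04 to 7.58 (median 7.30, n = 9) at P2/P9 and from 4.24 to 5.03 (median 4.77, n = 7) at P23/P45, without overlap (LFC -1.90 ± 0.19). The falls were 0.75 ± 0.17 in MEC LDeep, 1.33 ± 0.18 in LEC LII and 0.78 ± 0.17 in LEC LDeep. From step to step Bcl11b fell by 1.13 from P2 to P9 and by 0.71 from P9 to P23, and it was 0.17 ± 0.13 higher at P45 than at P23 (adjusted p = 0.61).

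Rorb rose in LII of both regions. In MEC LII it ranged from 2.09 to 4.56 (median 3.62) at P2/P9 and from 4.78 to 5.25 (median 5.12) at P23/P45, and in LEC LII from 2.91 to 4.30 (median 3.88) and from 4.64 to 5.58 (median 5.07). Neither region showed overlap between the ages in LII. In LDeep the rise was 0.49 ± 0.18 in MEC (adjusted p = 0.017) and 0.34 ± 0.18 in LEC (adjusted p = 0.098). The MEC LDeep rise was lost without its replicate 4 of P9 (0.41, adjusted p = 0.054), or without its replicate 2 or 3 of P23 (0.44, adjusted p = 0.053 each). In LEC LDeep it passed without its replicate 4 of P2 (0.41, adjusted p = 0.048).

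Tle4 fell in both layers of MEC, and in neither layer of LEC did its change pass edgeR's test. In MEC LDeep it ranged from 7.69 to 9.27 (median 8.21) at P2/P9 and from 7.20 to 7.93 (median 7.59) at P23/P45, and the LFC was -0.83 ± 0.16 there and -0.69 ± 0.16 in MEC LII. In LEC LII it was -0.08 (95% interval -0.40 to 0.25) and in LEC LDeep -0.26 (95% interval -0.58 to 0.05, adjusted p = 0.14). The latter passed without replicate 3 of LEC LDeep P23 (-0.47, adjusted p = 0.014) and in limma voom with TMM and quantile normalization (-0.33, adjusted p = 0.043). Tbr1 rose in MEC LII (0.96 ± 0.32, adjusted p = 0.0073), and Foxp1 fell in MEC LDeep (-0.44 ± 0.16, adjusted p = 0.011, but -0.30 with an adjusted p of 0.064 without replicate 4 of MEC LDeep P2). Over both layers, Fezf2 rose in LEC (0.52 ± 0.23, adjusted p = 0.039), a call that was lost in the 3 limma fits (0.55 to 0.58, adjusted p = 0.056 to 0.075). Etv1 rose in MEC (0.39 ± 0.14, adjusted p = 0.014), but at 0.28 (adjusted p = 0.068) without the 5 libraries named above. In all, 4 of 8 genes changed in MEC LII (66.5% of genes), 4 in MEC LDeep (66.2%), 2 in LEC LII (62.7%) and 1 in LEC LDeep (64.5%). By step, 4 of 8 changed from P2 to P9 (63.4% of genes). Bcl11b, Fezf2 (-0.82) and Tbr1 (-0.87) fell, and Rorb rose (0.31). Mean Fezf2 went from 3.25 to 1.39 in MEC LII and from 2.01 to 1.55 in LEC LII. The MEC LII mean at P2 included replicate 3, at 5.16 against 1.55 to 3.37 in the others. That library was among the 5 named above, and its meningeal sum (35.6 CPM) ran against the layer label. In LDeep it went from 5.92 to 5.72 in MEC and from 5.18 to 5.19 in LEC. Mean Tbr1 went from 3.51 to 3.20 in MEC LII and from 5.30 to 3.71 in LEC LII. In LDeep it went from 6.29 to 6.22 in MEC and from 5.85 to 5.13 in LEC. The tests by step were not repeated in the alternative fits. From P9 to P23 3 of 8 changed (64.6%), Bcl11b, Tle4 (-0.35) and Rorb (0.61). From P23 to P45 edgeR called 0 of 8 (3.85% of genes), and 0 of 8 had an unadjusted p under 0.05.

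Between regions, 4 of 8 genes differed with ages and layers weighted equally. Tle4 was higher in MEC by 0.44 ± 0.08, as were 8.87% of all genes, and Etv1, Bcl11b and Rorb were higher in LEC, as were 6.53% (LFC MEC minus LEC -0.79 ± 0.10, -0.57 ± 0.09 and -0.34 ± 0.09, adjusted p = 4.4e-08, 1.5e-06 and 0.0071). The other genes had 95% intervals of -0.03 to 0.61 (Fezf2), -0.19 to 0.42 (Tbr1), -0.08 to 0.23 (Foxp1) and -0.12 to 0.64 (Foxp2). The count was 4 without the 5 libraries named above as well. Oligodendrocyte markers were higher in MEC for 4 of 8 genes (median LFC 0.58), and their part in the regional differences was not tested. In LII 2 of 8 genes differed (12.6% of genes) and in LDeep 3 of 8 (5.78%).

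**Figure D4:**
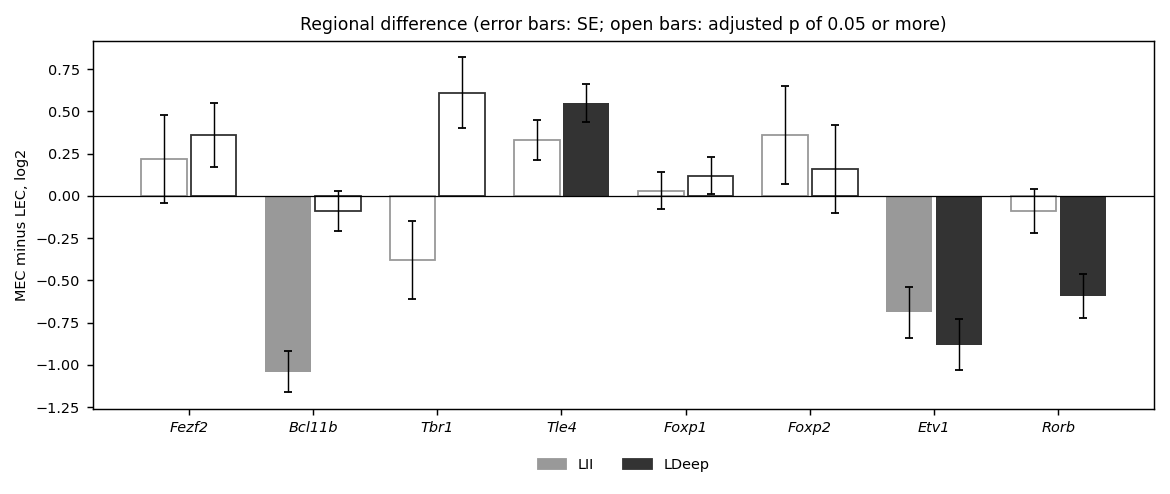
Regional difference (MEC minus LEC, log2, vertical axis) of each gene in LII and in LDeep, with SE bars and open bars where the adjusted p was 0.05 or more. Bcl11b was lower in MEC in LII (-1.04) and near even in LDeep (-0.09), whereas Etv1 was lower in MEC in both layers.

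The regional difference of Bcl11b lay in LII. At P9 MEC LII was at 5.04, 5.69, 5.52 and 6.13 and LEC LII at 6.77, 6.88, 6.28 and 7.60, and at all 4 ages every LEC LII sample was above every MEC LII sample. The LFC was -1.04 ± 0.12 in LII (adjusted p = 8e-09) and -0.09 ± 0.12 in LDeep (95% interval -0.32 to 0.15). Etv1 was lower in MEC in both layers, by 0.69 ± 0.15 in LII and 0.88 ± 0.15 in LDeep. At P9 its LDeep samples were at 7.17, 7.24, 6.73 and 6.78 in MEC and at 8.79, 8.08, 8.42 and 7.88 in LEC, which did not overlap. Rorb differed in LDeep (-0.59 ± 0.13, adjusted p = 0.0017), where LEC lay entirely above MEC at P9, P23 and P45, and was -0.09 (95% interval -0.35 to 0.17) in LII.

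Tle4 was higher in MEC in LDeep by 0.55 ± 0.11 (adjusted p = 0.0007). In LII its LFC was 0.33 ± 0.12 (adjusted p = 0.051), and it passed in 17 of the 80 fits that left out a sample or a replicate number, without the 5 libraries named above (0.38, adjusted p = 0.0029), in DESeq2 (0.32, adjusted p = 0.045) and with a fixed replicate block (0.31, adjusted p = 0.025). At P9 MEC LDeep held 8.71, 8.41, 7.91 and 8.79 and LEC LDeep 7.54, 7.44, 7.60 and 7.32, without overlap. At P45 the ranges overlapped, with MEC LDeep at 7.57, 7.39, 7.62 and 7.20 and LEC LDeep at 6.97, 7.18, 7.22 and 6.96. The regional difference of Tle4 was smaller at P23/P45 than at P2/P9 by 0.59 ± 0.16 (adjusted p = 0.022). Without replicate 3 of LEC LDeep P23 that change was -0.50 (adjusted p = 0.055), and without all samples of replicate 2 or 4 of P9, 2 or 3 of P23 or 2 of P45 the adjusted p was 0.050 to 0.085. Foxp1 changed by -0.52 ± 0.16 (adjusted p = 0.044), a call that was lost in 45 of those 80 fits and with a fixed replicate block (-0.51, adjusted p = 0.054). These were 2 of 8 genes, with 4.38% of all genes past the test. Fezf2 came to -0.92 ± 0.32 (adjusted p = 0.10), and passed without all samples of replicate 2 at P2 (-1.09, adjusted p = 0.021) or without that replicate of MEC LII (-0.98, adjusted p = 0.049) or of LEC LII (-1.03, adjusted p = 0.047). Oligodendrocyte markers moved the other way for 5 of 8 genes (median 1.97), and their part was not tested. In LDeep Tbr1 was higher in MEC by 0.61 ± 0.21 (adjusted p = 0.073), which passed at 0.74 (adjusted p = 0.019) without replicate 4 of LEC LDeep P45, in 7 more of those 80 fits and with a fixed replicate block (0.55, adjusted p = 0.041).

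Levels can be set against each other only per length, as log2 RPKM. In LDeep the order of mean levels was Tle4 5.70, Etv1 4.82, Tbr1 4.81, Fezf2 4.42, Bcl11b 4.33, Foxp1 4.33, Rorb 3.48 and Foxp2 1.37. Tle4 was above Etv1 in 25 of 32 LDeep samples, by 0.88 ± 1.04 (SD). For this pair and the next neighbours, down to Bcl11b and Foxp1, the mean difference was smaller than its SD over samples. Whether these means differ was not tested. Etv1 was above Tbr1 in 16 of 32, Tbr1 above Fezf2 in 24, Fezf2 above Bcl11b in 20 and Bcl11b above Foxp1 in 13. Foxp1 was above Rorb and Rorb above Foxp2 in 32 of 32. These means pool ages and regions, and in LEC LDeep Etv1 was above Tle4 at P9 (5.51 against 5.48) and P45 (5.38 against 5.08). In LII the mean was 4.07 for Tle4 and 3.83 for Bcl11b, with Bcl11b the higher at P2 in both regions (5.06 against 4.70 in MEC, 5.27 against 3.94 in LEC) and in LEC at P9 (4.44 against 3.89). Fezf2 (1.23) and Foxp2 (0.01) had the lowest LII means.

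Over the 16 group means of log2 CPM, Fezf2 followed Foxp1 (r = 0.93), Tle4 (r = 0.92), Foxp2 (r = 0.89) and Tbr1 (r = 0.83), while Bcl11b and Rorb ran against each other (r = -0.56). These correlations describe group means that share ages, layers and regions. Among 11897 genes, those most like Fezf2 were Nxph3 (r = 0.938), Sema3c (0.933) and Adgrb3 (0.931). Tle4 was nearest to Sema3c (0.957), Prokr1 (0.956) and Cntnap4 (0.954), Tbr1 to Tshz3 (0.955), Pex16 (0.842) and Ptpru (0.838), and Foxp2 to Myh2 (0.964), Nxph3 (0.946) and Cntnap4 (0.929). Foxp1 was nearest to Arfgap3 (0.926), Fezf2 (0.925) and Zfpm2 (0.917), and Etv1 to Htr2a (0.917), Gtdc1 (0.897) and Sst (0.879). Bcl11b was nearest to Rapgef6 (0.949), Myh7 (0.937) and Lmo4 (0.935), and Rorb to Gadd45g (0.927), Mpeg1 (0.902) and Stxbp6 (0.892).

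**Figure D5:**
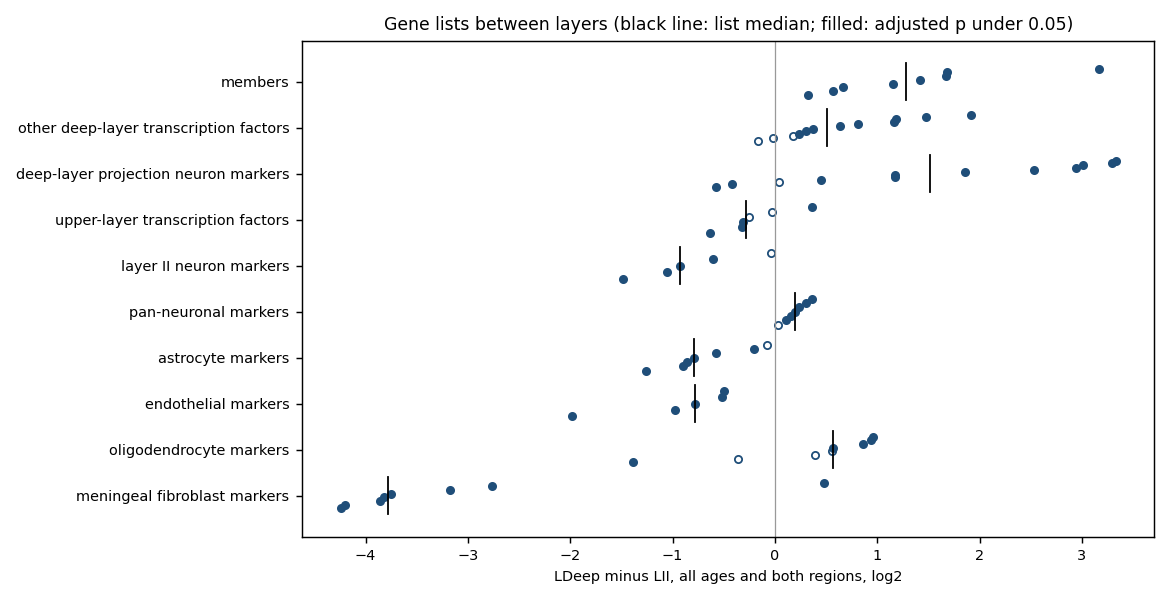
Layer difference (LDeep minus LII, log2, horizontal axis) of each gene of 10 lists, with black lines for list medians and filled points where the adjusted p was under 0.05. The 8 genes ("members") lie between 0.32 and 3.17, and meningeal fibroblast markers at -4.24 to 0.48.

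Of 12 other deep-layer transcription factors, 9 were higher in LDeep and 0 in LII (median LFC 0.51 against 0.05 for all genes), led by Nr4a2, a nuclear receptor of deep-layer and claustral neurons (1.92), and Tshz3, a zinc finger factor of corticospinal neurons (1.48). Of 6 upper-layer factors, 1 was higher in LDeep, Lmo4 (0.36), and 3 in LII, led by Lhx2 (-0.63) and Cux2 (-0.32) (median -0.28). Of 12 known partners and targets of the 8 factors, 5 were higher in LDeep, led by Sox5 (1.16), a partner in deep-layer specification, and Nr2f1 (0.41), a nuclear receptor that patterns cortical areas, and 4 in LII, led by Reln (-1.48) and Lhx2 (median 0.10). Reln, the secreted guidance protein reelin, is a layer II neuron marker here. These shares stand beside 30.5% of all genes higher in LDeep and 23.5% higher in LII. Of 8 paralogs tested, 3 were higher in LDeep, led by Etv5 (0.31) and Foxp4 (0.25), and 3 in LII, led by Etv4 (-0.44) and Tle3 (-0.36) (median 0.03). With age 7 of the 12 partners and targets fell and 0 rose (median -0.46), led by Sox11 (-2.80) and Sox4 (-2.70), factors of immature neurons. Of the 12 other deep-layer factors 4 fell, led by Sox5 (-0.69) and Nfib (-0.62), and 2 rose, Nfia (0.32) and Ldb2 (0.21), with a median of -0.20 against 0.01 for all genes. Of all genes, 40.6% fell and 41.0% rose with age. Between regions 6 of the 12 other deep-layer factors were higher in MEC (8.87% of all genes), led by Nr4a2 (1.71) and Pou3f1 (0.68). In LEC 2 were higher (6.53% of all genes), Id2 (-0.38) and Ldb2 (-0.29).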

How the data were processed

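RNA-seq counts of 64 samples were used, 1 file per sample. The deposited counts are whole reads per gene that the authors made with bcl2fastq 1.8.4, Trimmomatic 0.33, STAR 2.4.0 on the rat Rn6 genome and featureCounts (Subread 1.4.6-p1) over RefSeq exons, strand-specific, with read pairs over several genes counted for each. No exon of the 8 genes was shared with another gene.

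Counts were fitted with edgeR 4.0.16 in R 4.3.3 (TMM scaling, filterByExpr, quasi-likelihood test, 16 group means, 12521 of 17260 genes tested). P-values were adjusted by Benjamini-Hochberg over all tested genes, with a threshold of 0.05, and contrasts weighted ages, layers and regions equally. Levels were computed as log2 CPM (edgeR prior count 2) or as log2 RPKM per exon length. Depth was 3894334 to 11439143 counts per sample. The fit was tested on simulated data. Alternatives were RLE size factors, other filters on low counts, limma 3.58.1, DESeq2 1.42.0, a replicate block, sums per replicate number, single regions or ages, and leaving out samples.

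Groups came from the labels. The 8 genes and all lists were chosen with earlier results of these data known. All 8 genes were named, with the 2 largest changes in each direction of each list described and, for each of the 8, the 3 genes with the highest Pearson r over the 16 group means (mean of at least 1 CPM). Listed genes without a row, such as Tshz2, Cux1, Mef2c and Rora, were not analysed here. A gene of the lists is not reported here and was left out of their counts and medians after the values were seen.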

Additional observations from a re-analysis of the deposited data

Results flagged for a closer look

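Each gene was looked at in each group of 4 or 5 samples, which made 96 pairs of gene and group. In 11 of these, 1 sample stood far from the others of its group in log2 CPM. Chance gives such a sample in about 1 of 20 pairs, but the genes share their samples, so the pairs are not independent. Bcl11b was low in replicate 2 of LEC LDeep P9, at 6.24 against 6.77 to 6.87, and high in replicate 4 of LEC LDeep P45, at 7.11 against 6.08 to 6.25. Fezf2 was low in replicate 1 of MEC LII P9, at 0.13 against 1.63 to 1.93, and in replicate 1 of MEC LDeep P2, at 4.61 against 6.02 to 6.41. Tbr1 was low in replicate 1 of MEC LII P2, at 0.74 against 3.72 to 4.62, and high in replicate 4 of MEC LDeep P2, at 8.24 against 5.49 to 6.15, and of LEC LDeep P45, at 6.59 against 5.10 to 5.27. Tle4 was low in replicate 1 of LEC LII P45, at 5.71 against 5.92 to 5.94. Foxp1 was high in replicate 3 of LEC LDeep P9, at 5.40 against 5.20 to 5.23. Etv1 was high in replicate 2 of MEC LII P9, at 6.12 against 5.98 to 6.01, and in replicate 2 of MEC LDeep P45, at 7.51 against 7.35 to 7.37.

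In edgeR's tests over all samples of layer against age, layer against region and region against age, 4 genes passed. The layer difference changed with age for Bcl11b (0.85, adjusted p = 0.00048) and Rorb (-0.91, adjusted p = 0.00053), and differed between regions for Bcl11b (0.96, adjusted p = 0.00077). The regional difference changed with age for Tle4 (-0.59, adjusted p = 0.022) and Foxp1 (-0.52, adjusted p = 0.044). Within MEC, layer against age also passed for Bcl11b (1.15, adjusted p = 0.0019), Tbr1 (-1.57, adjusted p = 0.021) and Rorb (-0.84, adjusted p = 0.049). Within LEC it passed for Rorb (-0.98, adjusted p = 0.029). The Tbr1 call depended on the samples used, as given above. The Rorb call in MEC was lost with RLE size factors (-0.82, adjusted p = 0.058) and without a filter on low counts (-0.81, adjusted p = 0.07). It was also lost with at least 10 counts in every sample (-0.83, adjusted p = 0.055) and when MEC was fitted alone (-0.84, adjusted p = 0.14). So it was in limma voom with quantile normalization (-0.77, adjusted p = 0.083) and without the samples of replicate 2 at P2 (-0.82, adjusted p = 0.072).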

How the results depend on the processing

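The number of the 8 genes called between layers was 8 in every alternative run but the filter of at least 10 counts in every sample, which removed Fezf2 and gave 7. It was 3 between ages and 4 between regions in every alternative outside the leave-outs. For the layer difference between regions it rose from 1 to 2 with a fixed replicate block and without the 5 libraries least like their groups, and ranged from 1 to 2 over the leave-outs. For ages in MEC it fell from 5 to 3 without those 5 libraries and to 4 with the random replicate block. For ages in LEC it fell from 3 to 2 in the 3 limma fits, and rose to 4 with LEC samples only and without those 5 libraries. Leaving out those libraries, and limma voom without the block, were chosen after seeing the data.

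Same-numbered samples of an age correlated at a mean of 0.126 to 0.143 in their deviations from group means, against -0.0452 to -0.0391 for other numbers, with 17 to 20 of 32 pairs over 0.1 and the lowest at -0.259. Of 64 samples 42 were closest to one of their own number, a hint of pairing from the data. The study ties such numbers to animals for its miRNA arrays, but the labels do not for these samples. Not every pair was over 0.1, which does not exclude pairing, and the main fit kept no block. If the numbers name animals, samples of an age are not independent, and the age p-values of the main fit are too small. With the random replicate block and with summed counts, the number called between ages stayed at 3. With the fixed replicate block the layer difference of Tbr1 between regions passed (0.96, adjusted p = 0.036), as did Tle4 between regions in LII (0.31, adjusted p = 0.025) and Tbr1 in LDeep (0.55, adjusted p = 0.041), and Foxp1 was lost for regions against age (-0.51, adjusted p = 0.054).

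Signs turned only for values past the threshold in neither fit. Age changes turned to 0.09 (Foxp2), 0.14 (Foxp2 in MEC) and 0.05 (in LEC) with the random replicate block, to 0.09, 0.14 and 0.04 in limma without it, to -0.10 (Tbr1), 0.13 (Foxp2) and -0.14 (Fezf2) with summed counts, to 0.03 (Foxp2 in MEC) and -0.03 (Etv1 in LEC LDeep) with quantile normalization, and to 0.00 (Tbr1 in LEC) with the strict filter. Without the 5 libraries they turned to 0.14 (Foxp2), 0.01 (Foxp1), 0.36 (Foxp2 in MEC), 0.05 (Foxp2 in MEC LII), 0.11 (Fezf2 in MEC LII) and -0.02 (Tbr1 in LEC LDeep), regions in LII to -0.03 (Foxp1) and -0.01 (Fezf2), and layer against age to 0.03 (Tle4), 0.19 (Tle4 in MEC) and -0.09 (Etv1 in MEC). The cause was not tested. Mean levels are lower per length, as log2 RPKM 4.08 for Bcl11b, 2.83 for Fezf2, 3.99 for Tbr1, 4.89 for Tle4, 4.00 for Foxp1, 0.69 for Foxp2, 4.25 for Etv1 and 3.28 for Rorb.

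Over the leave-outs age changes ranged from -0.03 to 0.25 (Tbr1), -0.21 to 0.15 (Foxp2), -0.08 to 0.00 (Foxp1), -0.03 to 0.18 (Fezf2), -0.53 to 0.10 (Fezf2 in MEC LII), -0.02 to 0.36 (Tbr1 in LEC LDeep) and -0.06 to 0.14 (Etv1 in LEC LDeep). Regional differences ranged from 0.00 to 0.18 (Tbr1) and -0.04 to 0.12 (Foxp1 in LII), layers against regions from -0.03 to 0.35 (Fezf2), and regions against age from -0.01 to 0.15 (Rorb) and -0.18 to 0.22 (Foxp2). Layer differences ranged at P2 from -0.25 to 0.93 (Foxp2) and -0.14 to 0.04 (Bcl11b), and at P23 from -0.25 to 0.21 (Rorb). Layers against age ranged in MEC from -0.21 to 0.11 (Tle4), -0.13 to 0.35 (Etv1) and -0.58 to 0.08 (Fezf2), and in LEC from -0.18 to 0.13 (Foxp1). The lowest counts, for Fezf2 in LII, limit the precision of its values there.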
